A study of Arabidopsis thaliana with 8 samples.

Results

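MYB transcription factors with a number-only symbol were followed in young Arabidopsis inflorescences that ectopically expressed CYC2-type TCP genes. The members are all probe sets whose single gene symbol is MYB followed by a number, with MYB24, MYB108, MYB28 and MYB105 left out. This gave 10 probe sets for 9 genes among 22746 probe sets on the array, whereas the RefSeq gene table lists 115 Arabidopsis genes with such a symbol. None of the 10 probe sets takes its name from the platform annotation (0 probe sets), so all were identified through the study's own gene lists. These lists hold genes that passed a 2-fold change on these same arrays. A difference from the control is therefore a condition of being listed, and it is described here without a test. MYB34 and MYB10 were listed for all 3 transgenes, MYB21 for IaTCP1 only, MYB25 for TCP1 only, and MYB13, MYB20, MYB44, MYB50 and MYB117 for CYC only.

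RNA came from secondary inflorescences of cultivar Columbia plants that carried closed buds before anthesis. Each of the 4 groups was a T2 line with 2 arrays. The control line carried the empty pBAR vector, and the others carried IaTCP1 from Iberis amara, TCP1 from Arabidopsis or CYC from Antirrhinum behind the constitutive CaMV 35S promoter. These lines are called 35S::IaTCP1, 35S::TCP1 and 35S::CYC. The 2 arrays of a line were hybridized with technical RNA samples, and p-values measure only the spread between such samples, not between independent lines. Plants were chosen for a clear flower phenotype, and the 35S promoter is not restricted to petals, so the values are averages over all bud tissues.

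Values are RMA-normalized log2 intensities, on which a difference of 1 is a 2-fold difference. Array medians ranged from 6.48 to 6.56 and the arrays of a group correlated at r of 0.9967 to 0.9981. The bud markers AP1 (9.69 to 11.16) and LAP5 (8.90 to 10.20), of the floral meristem and the tapetum, gave signal on every array, with AP1 lowest in 35S::CYC (9.69 and 9.79 against 11.12 and 11.16 in the control). Late pollen markers named here (6 of a list of 15) had a summed intensity of 2870 to 2930 in the control and of 989 to 999 in 35S::IaTCP1. The sum was 1420 to 1530 in 35S::TCP1 and 2410 to 2420 in 35S::CYC. Of 7 tapetum markers named here, from a list of 16, the sum was 9380 to 10300 in the control, 7380 to 8000 in 35S::IaTCP1, 7170 to 7230 in 35S::TCP1 and 4630 to 4990 in 35S::CYC. A single seed marker of 12, OLEO3, had 57.8 to 68.0 in the control, 109 to 110 in 35S::IaTCP1, 82.1 to 93.3 in 35S::TCP1 and 838 to 912 in 35S::CYC. Of the markers summed, 4 of the late pollen and 5 of the tapetum set were named only through the study's lists, which favours changes in the sums. The sums add unlogged intensities, so the brightest markers weigh most. None of these markers was at 0 on any array, as RMA gives no zeros. The part of these markers in the MYB differences was not tested, and in such bulk tissue fewer cells of a type and less RNA per cell cannot be told apart.

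R2R3-MYB proteins bind DNA through a pair of MYB repeats and form one of the largest transcription factor families of plants. Members control specialized metabolism, secondary walls, organ boundaries, stress responses and the maturation of stamens and petals. Many act together with bHLH proteins, and their transcripts often respond to hormones such as jasmonate and abscisic acid.

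Calls needed a 2-fold difference and, in limma, a p of at most 0.05 after Benjamini-Hochberg adjustment over all probe sets. By this rule, 2 member probe sets were higher in 35S::IaTCP1 than in the control and 2, both of the gene MYB21, were lower. Of all 22746 probe sets, 3.32% were called in that comparison (0.976% higher, 2.35% lower). In 35S::TCP1, 3 members were higher and none was lower by 2-fold, against 1.91% of all probe sets (0.659% higher, 1.25% lower). In 35S::CYC, 5 were higher and 2 lower, against 3.08% of all probe sets (1.53% higher, 1.55% lower). The listing fixed these counts, so nothing is read from their distance to the background. The median log2 change over the 10 probe sets was -0.03 for IaTCP1, -0.11 for TCP1 and 0.69 for CYC, beside 0.05, 0.03 and 0.02 over all probe sets. For 10, 8 and 10 members, respectively, the transgenic arrays lay wholly to one side of the control arrays, which held for 59%, 57.1% and 60.9% of all probe sets. The listing also shapes these medians and this separation, so nothing is read from their distance to all probe sets.

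**Figure D1:**
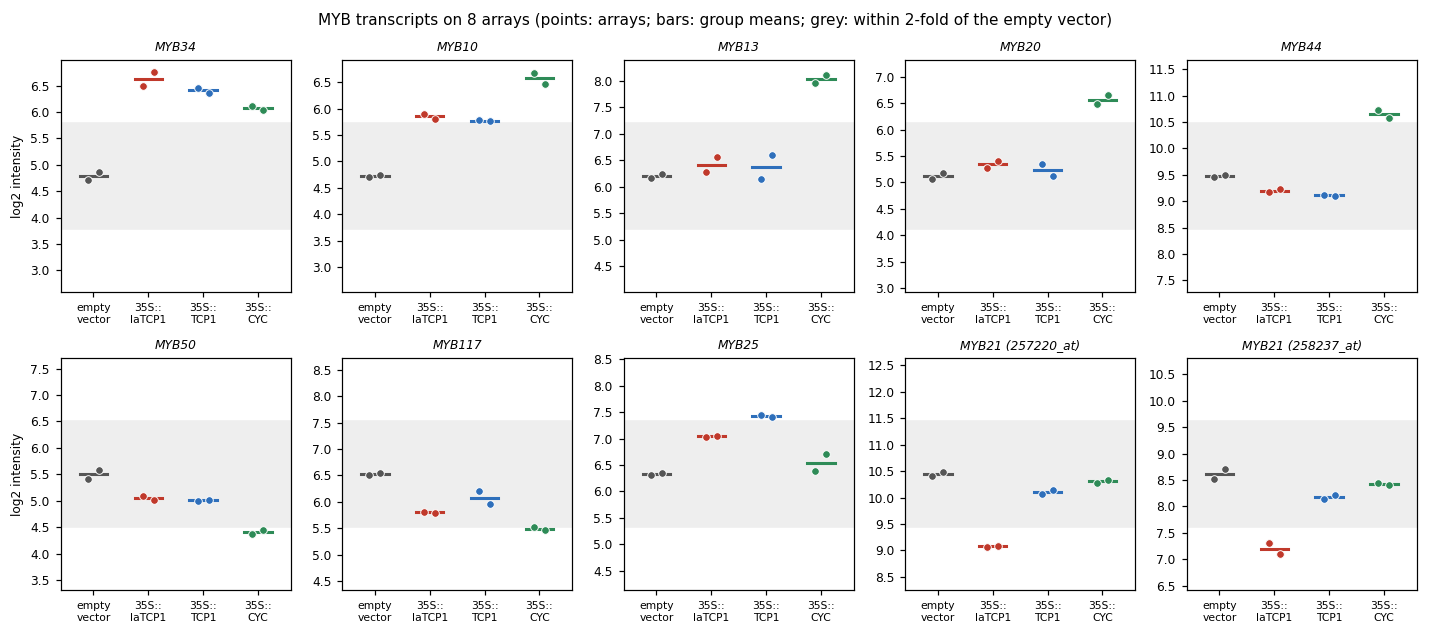
Log2 intensity (vertical axis) of the 10 MYB probe sets in the 4 groups (horizontal axis). Points are single arrays, bars group means, and the grey band marks 2-fold either side of the control mean. MYB34 and MYB10 lie above the band in all 3 transgenic lines, MYB21 lies below it in 35S::IaTCP1, and MYB13, MYB20 and MYB44 lie above it in 35S::CYC.

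Among the regulators of specialized metabolism, MYB34 (AT5G60890, probe set 247600_at) activates tryptophan and indole glucosinolate synthesis. Its log2 intensity was 4.71 and 4.86 in the control, 6.48 and 6.75 in 35S::IaTCP1, 6.45 and 6.36 in 35S::TCP1, and 6.11 and 6.04 in 35S::CYC. All 6 transgenic arrays were above both control arrays, and the order of the group means was IaTCP1, TCP1, CYC and control. Against the control, MYB34 was 3.56-fold higher for IaTCP1 (log2 1.83 ± 0.11, SE), 3.07-fold for TCP1 (1.62 ± 0.11) and 2.45-fold for CYC (1.29 ± 0.11). The control values were not far above the lower quartile of their arrays (4.48 and 4.52), and no detection call was used.

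As MYB34 was listed for every transgene, the listing did not fix which transgenic line was higher. It did require at least 2-fold in each line on these same arrays, so the tests are not wholly free of it. MYB34 was tested between the lines with this limit. It was higher in 35S::IaTCP1 than in 35S::CYC by 0.54 (95% confidence interval 0.31 to 0.77; limma, adjusted p = 0.00316). The gap of 0.33 between 35S::TCP1 and 35S::CYC (0.10 to 0.56; limma, adjusted p = 0.0519) and that of 0.21 between 35S::IaTCP1 and 35S::TCP1 (-0.02 to 0.44; limma, adjusted p = 0.313) did not pass the threshold. For TCP1 and CYC the adjusted p ranged from 0.0283 to 0.240 over the alternative settings, 5 of which brought it to 0.05 or less. A replicate block was one of these (limma, adjusted p = 0.0311), so whether this difference passed an adjusted p of 0.05 depended on the fit. It stayed under 2-fold in every setting (0.28 to 0.37) and so was not a call by the 2-fold rule.

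Genes of indole glucosinolate synthesis were taken from a list of 13, of which 4 could be matched to a probe set. CYP79B2, which converts tryptophan to indole-3-acetaldoxime, had 6.50 and 6.32 in the control, 7.94 and 7.60 in 35S::IaTCP1, 7.33 and 7.62 in 35S::TCP1, and 7.51 and 7.56 in 35S::CYC. CYP83B1, the next enzyme of the pathway, was higher than the control by 1.26 ± 0.12 (SE) for IaTCP1, 0.90 ± 0.12 for TCP1 and 1.23 ± 0.12 for CYC. CYP79B3, which catalyses the same step as CYP79B2, differed by -0.10 ± 0.11, -0.04 ± 0.11 and 1.26 ± 0.11. These 3 genes are also named only through the study's lists, so their differences carry no test.

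The fourth gene, the glucosyltransferase UGT74B1, was named by the platform annotation. Its log2 change was 0.27 for IaTCP1 (limma, adjusted p = 0.0596), -0.02 for TCP1 (adjusted p = 0.886) and 0.09 for CYC (adjusted p = 0.568), and none passed the test. CYP79B2 thus lay above the control on the arrays of every transgenic line, as MYB34 did, whereas CYP79B3 did so in 35S::CYC only among the 3 lines.

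**Figure D2:**
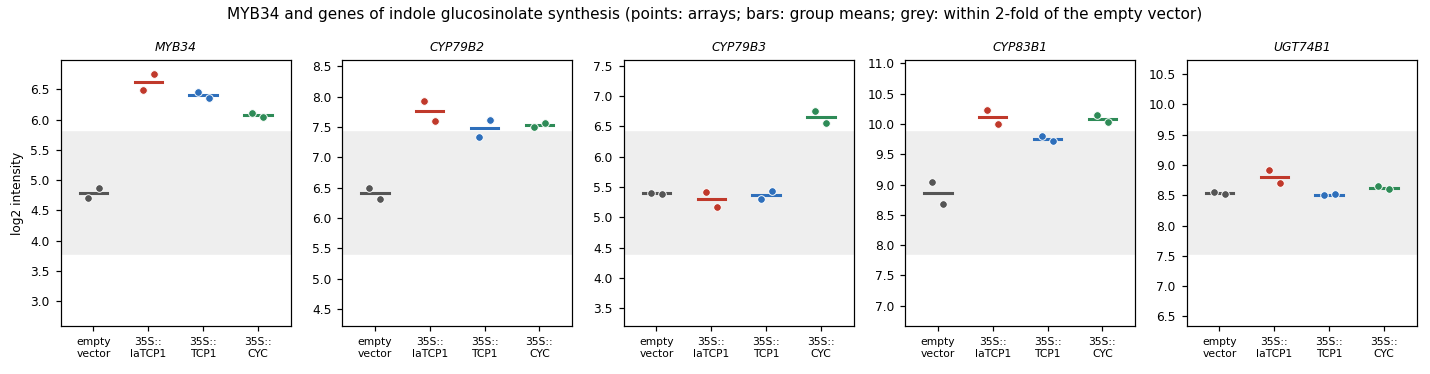
Log2 intensity (vertical axis) of MYB34 and 4 genes of indole glucosinolate synthesis in the 4 groups (horizontal axis). Points are arrays, bars group means, and the grey band marks 2-fold either side of the control mean. CYP79B3 leaves the band in 35S::CYC (6.76 and 6.56 against 5.41 and 5.39), and UGT74B1 stays within it in every group.

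MYB10 (AT3G12820, 257689_at) acts with MYB72 in the response of roots to iron deficiency. Its values were 4.71 and 4.73 in the control, 5.90 and 5.81 in 35S::IaTCP1, 5.78 and 5.77 in 35S::TCP1, and 6.67 and 6.46 in 35S::CYC. The 35S::CYC arrays were the highest, the arrays of the crucifer transgenes lay close together, and the control arrays were the lowest. The differences from the control were 1.13, 1.05 and 1.85 (SE 0.09 each), or 2.19-fold, 2.07-fold and 3.59-fold. As for MYB34, the control values were not far above the lower quartile of their arrays (4.48 and 4.52), without a detection call.

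Between the transgenic lines, MYB10 was higher in 35S::CYC than in 35S::IaTCP1 by 0.71 (interval 0.51 to 0.92; limma, adjusted p = 1.48e-04). It was also higher than in 35S::TCP1, by 0.80 (0.59 to 1.00; limma, adjusted p = 7.26e-05). IaTCP1 and TCP1 differed by 0.08 (-0.12 to 0.29; limma, adjusted p = 0.717). Of the 3 transgenic lines, 35S::CYC had the highest mean for MYB10 and the lowest for MYB34, and 35S::IaTCP1 lay above 35S::TCP1 for both genes. The limit that the listing sets for MYB34 holds for MYB10 too. Its changes for IaTCP1 and TCP1 (2.19-fold and 2.07-fold) lay near the 2-fold minimum of the lists.

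Among genes linked to stress responses, MYB44 (AT5G67300, 246987_at; MYBR1 in RefSeq) acts in abscisic acid signalling and stomatal closure. It had 9.45 and 9.50 in the control, 9.17 and 9.23 in 35S::IaTCP1, 9.12 and 9.10 in 35S::TCP1, and 10.72 and 10.58 in 35S::CYC. The 35S::CYC arrays were above the control arrays and those of both other lines were below them. The log2 differences from the control were -0.28, -0.37 and 1.17 (SE 0.09 each), the last of them 2.26-fold. IaTCP1 and TCP1, for neither of which MYB44 was listed, differed by 0.09 (-0.10 to 0.28; limma, adjusted p = 0.671).

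MYB13 (AT1G06180, 260784_at) is a close relative of MYB14 and MYB15. It had 6.16 and 6.25 in the control, 6.28 and 6.56 in 35S::IaTCP1, 6.15 and 6.59 in 35S::TCP1, and 7.95 and 8.12 in 35S::CYC. Both 35S::CYC arrays exceeded all others, and the 35S::TCP1 arrays overlapped those of the control and of 35S::IaTCP1. MYB13 was 3.57-fold higher than the control in 35S::CYC (1.83 ± 0.14, SE), with changes of 0.22 and 0.17 for IaTCP1 and TCP1. Its residual SD of 0.197 was the largest of the members (median of all probe sets 0.0960).

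Of the regulators of secondary walls, MYB20 (AT1G66230, 259822_at) belongs to a group that activates lignin and phenylalanine synthesis genes. Its values were 5.06 and 5.18 in the control, 5.28 and 5.40 in 35S::IaTCP1, 5.36 and 5.12 in 35S::TCP1, and 6.48 and 6.65 in 35S::CYC. As for MYB13, the 35S::CYC arrays stood above the other 6. MYB20 was 2.72-fold higher than the control for CYC (1.44 ± 0.11, SE), and its differences for IaTCP1 and TCP1 were 0.22 and 0.11. IaTCP1 and TCP1 differed from each other by 0.10 (-0.13 to 0.34; limma, adjusted p = 0.687).

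MYB50 (AT1G57560, 246401_at), a relative of the secondary wall regulator MYB61, lay in the opposite direction. It had 5.42 and 5.59 in the control, 5.10 and 5.02 in 35S::IaTCP1, 5.00 and 5.02 in 35S::TCP1, and 4.37 and 4.44 in 35S::CYC. All transgenic arrays were below the control, and 35S::CYC was lowest. The 35S::CYC values were under the lower quartile of their arrays (4.54 and 4.56), and no detection call was used here. The differences were -0.44, -0.49 and -1.10 (SE 0.09 each), the last being 2.14-fold lower.

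Of 15 listed secondary wall genes, 3 were matched. IRX12, the laccase LAC4 of lignin polymerization, differed from the control by -1.09, -1.10 and -0.59 for IaTCP1, TCP1 and CYC, and the homeobox gene KNAT7 by -1.33, -1.31 and -0.45. Both were named through the study's lists. IRX10, a xylan synthesis gene named by the platform, differed by -0.40, -0.73 and -0.35 (limma, adjusted p = 0.00867, 1.66e-04 and 0.0188). None of these differences reached 2-fold. In 35S::CYC, where MYB20 was higher and MYB50 lower, these 3 genes had negative values of less than 2-fold. In the same line 6 of 7 tapetum markers were called lower, beside 1.55% of all probe sets. Of the 6, 5 were named by the study's lists, which favours their calls. The platform named AMS, which was called (-1.81), and ATA27, which was not (-0.79). The seed marker OLEO3 was called higher, beside 1.53% of all probe sets. AP1, also named by the study's lists, differed by -1.40 from the control in 35S::CYC. The only other gene matched from the same marker list, SPL, was not called there. Their part in the values of MYB13, MYB20, MYB44, MYB50 and MYB117 was not tested.

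MYB117 (AT1G26780, 261274_at), also known as LATERAL ORGAN FUSION1, acts in the separation of lateral organs from the stem. Its values were 6.50 and 6.55 in the control, 5.81 and 5.78 in 35S::IaTCP1, 6.20 and 5.95 in 35S::TCP1, and 5.53 and 5.46 in 35S::CYC. The groups did not overlap, and the order from the top was control, TCP1, IaTCP1 and CYC. The differences from the control were -0.73, -0.45 and -1.03 (SE 0.10 each). That of CYC was 2.04-fold and fell just below the 2-fold minimum (-0.998) when 35S::CYC replicate 2 was left out. IaTCP1 and TCP1, for which it was not listed, differed by -0.28 (-0.49 to -0.07; limma, adjusted p = 0.131).

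Of the floral maturation regulators, MYB21 (AT3G27810) is a jasmonate-responsive gene needed for filament elongation and petal growth, and is measured by a pair of probe sets. Probe set 257220_at had 10.41 and 10.48 in the control, 9.07 and 9.08 in 35S::IaTCP1, 10.07 and 10.15 in 35S::TCP1, and 10.28 and 10.32 in 35S::CYC. Probe set 258237_at had 8.52 and 8.70, 7.31 and 7.09, 8.14 and 8.23, and 8.44 and 8.42, in the same order of groups. Both showed the lowest values in 35S::IaTCP1 and the highest in the control, with no overlap between any groups.

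In 35S::IaTCP1, MYB21 was 2.58-fold lower than the control by 257220_at (-1.37 ± 0.08, SE) and 2.65-fold lower by 258237_at (-1.41 ± 0.10). For TCP1 the differences were -0.33 and -0.43, and for CYC -0.14 and -0.18. TCP1 and CYC, for neither of which MYB21 was listed, differed by -0.19 (-0.38 to -0.01; limma, adjusted p = 0.150) and by -0.24 (-0.46 to -0.02; limma, adjusted p = 0.127). The late pollen markers given above were lowest in 35S::IaTCP1: 5 of 6 were called lower there, 3 in 35S::TCP1 and 0 in 35S::CYC. Of all probe sets, 2.35%, 1.25% and 1.55% were called lower in these lines. Of the 6 markers, 4 were named by the study's lists, which favours their calls. The platform named MGH3 (-1.07, -0.69 and -0.22) and TUB9 (-0.46, -0.24 and -0.31). The part of these markers in the MYB21 values was not tested.

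Of 22 listed genes of jasmonate synthesis and signalling, 3 were matched, all through the study's lists. The repressor gene JAZ10 differed from the control by -1.39, -1.10 and -0.82 for IaTCP1, TCP1 and CYC. JAZ5 differed by -1.04, -1.15 and -1.30, and LOX4, a lipoxygenase of jasmonate synthesis, by -1.04, -0.56 and -0.46. JAZ10 and LOX4 had their lowest values in 35S::IaTCP1, as MYB21 did, whereas JAZ5 was lowest in 35S::CYC. MYC3 and MYC4, bHLH partners in jasmonate signalling, and MYC1 were named by the platform, and none of the 3 reached 2-fold for any transgene (-0.47 to -0.05). MYC1 differed by -0.34 for IaTCP1 and -0.47 for CYC (limma, adjusted p = 0.0187 and 0.00257). The other differences of these genes did not pass an adjusted p of 0.05.

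MYB25 (AT2G39880, 267354_at) was the only member listed for TCP1 alone. It had 6.30 and 6.35 in the control, 7.03 and 7.05 in 35S::IaTCP1, 7.45 and 7.41 in 35S::TCP1, and 6.38 and 6.70 in 35S::CYC. The arrays of the groups did not overlap, with TCP1 highest, then IaTCP1, CYC and the control. MYB25 was 2.15-fold higher than the control for TCP1 (SE 0.10 on the log2 scale), and its log2 differences for IaTCP1 and CYC were 0.71 and 0.22. IaTCP1 and CYC, for neither of which it was listed, differed by 0.50 (0.27 to 0.73; limma, adjusted p = 0.00510). The 35S::CYC arrays were further apart than those of the other lines, and without 35S::CYC replicate 1 the adjusted p was 0.0879 (0.00190 to 0.0879 over the alternatives).

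**Figure D3:**
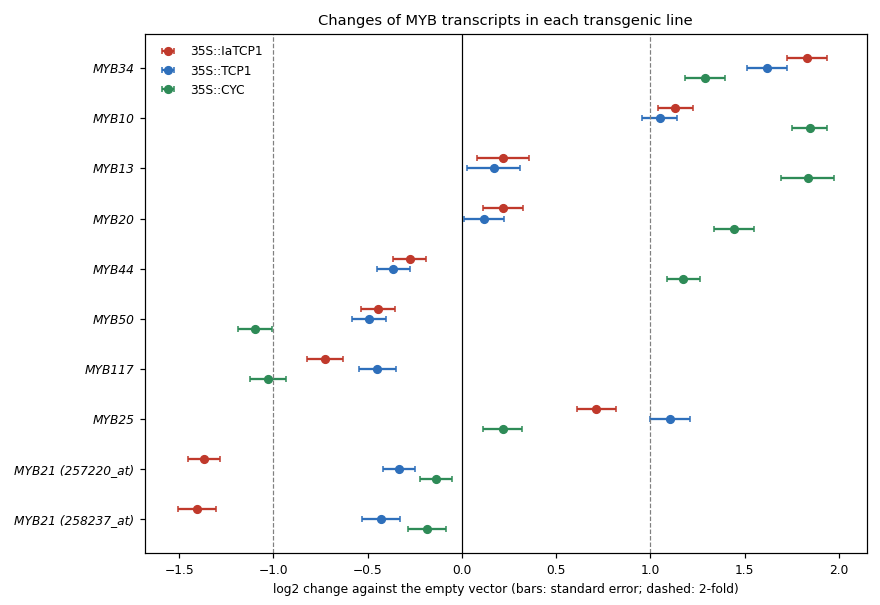
Log2 change of the 10 MYB probe sets (vertical axis) against the empty vector (horizontal axis), with standard errors and dashed lines at 2-fold. The 5 genes listed for CYC alone have their largest change in 35S::CYC, from -1.10 for MYB50 to 1.83 for MYB13, which the listing favours.

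Across the members, 30 direct differences between transgenes exist. Of these, 16 concern a gene listed for 1 of the transgenes compared and were not tested. Among the other 14, 6 concern a gene listed for both lines and 8 a gene listed for neither. Absence from both lists favours a small difference, so nothing is read from the latter where they missed the threshold. Listing for both lines required at least 2-fold in each, so the tests of the other 6 are not wholly free of the listing either. In limma, 4 of the 14 passed an adjusted p of 0.05 (8 at an unadjusted p of 0.05), and none reached 2-fold. They are MYB34 and MYB25 (higher for IaTCP1 than for CYC) and MYB10 (higher for CYC than for either other transgene). Between IaTCP1 and TCP1, 5 of the 7 differences given with a limma p (adjusted p = 0.131 to 0.910) concern a gene listed for neither. The members set aside there, each listed for 1 of these lines, had differences of -1.04 and -0.98 (MYB21) and -0.39 (MYB25).

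Over all 10 probe sets, irrespective of the listing, 1 member was called between IaTCP1 and TCP1, lower for IaTCP1, beside 0.642% of all probe sets (0.299% higher, 0.343% lower). Between IaTCP1 and CYC, 5 probe sets were called lower for IaTCP1, both of MYB21 among them, beside 2.72% (0.743% higher, 1.97% lower). Between TCP1 and CYC, 3 were called lower for TCP1, beside 1.99% (0.607% higher, 1.38% lower). The arrays of the lines compared did not overlap for 8, 10 and 10 members, beside 43.3%, 55.3% and 57.4% of all probe sets. These counts apply the call rule to all members, including genes listed for only 1 of the lines, whose calls the listing favours, and they are a description and no independent test. The single call between IaTCP1 and TCP1 is MYB21 by 257220_at (-1.04), and its other probe set lay just short of 2-fold (-0.98).

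**Figure D4:**
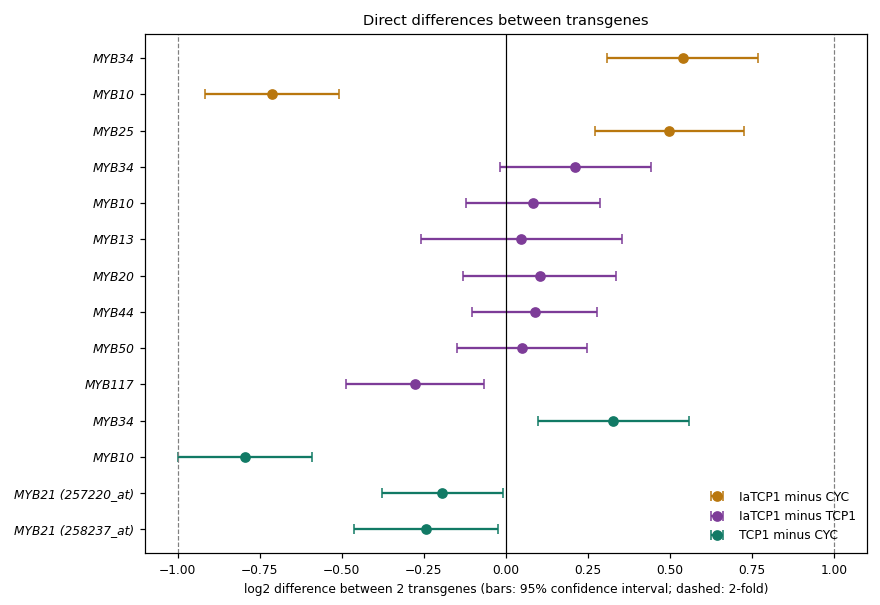
The 14 tested log2 differences between transgenes (horizontal axis) for each probe set (vertical axis), with 95% confidence intervals and dashed lines at 2-fold. MYB10 lies left of 0 for IaTCP1 minus CYC (-0.71) and TCP1 minus CYC (-0.80), and MYB34 (0.54) and MYB25 (0.50) lie right of 0 for IaTCP1 minus CYC.

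The MYB genes left out of the counts were lower than the control in every transgenic line. For IaTCP1, TCP1 and CYC the differences were -2.98, -1.29 and -0.74 for MYB24 and -2.07, -1.52 and -0.83 for MYB108. They were -0.88, -0.81 and -2.08 for MYB28 and -0.57, -0.39 and -1.30 for MYB105. These genes too were named only through the study's lists, MYB24 and MYB108 for IaTCP1 and TCP1, MYB28 and MYB105 for CYC. Their values carry no test.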

How the data were processed

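The authors hybridized ATH1 arrays and deposited 1 log2 intensity per probe set and array; the deposited processing notes name Partek and RMA, without versions. These values were used as deposited, without 64 control probe sets. Probe sets were named through the platform annotation (13513 with 1 gene) and the study's gene lists (1007 probe sets), and loci were matched to RefSeq symbols (9 of 9 loci, 8 with the same symbol). The members and gene lists were chosen with earlier results of these data known, and which direct differences to test was decided once the source of the members' names was known. All 9 member genes are named with their values, and at most 4 genes of each further list. The list genes CHI, FDH and RL2 were dropped because the matched probe set belongs to another gene of that symbol.

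All 8 arrays were fitted in R 4.3.3 with limma 3.58.1 (1 mean per group, lmFit and eBayes, 4 residual and 7.9 prior degrees of freedom). Adjusted p-values cover 22746 probe sets within a comparison. The fit was tested on simulated data. Plots were made in matplotlib 3.10.9 under Python 3.11.15. Alternatives covered normalization, variance trend, dim probe sets, fold minimum, multiple testing, a replicate block, the groups fitted and leaving out each array. The number of arrays limits the precision.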

Additional observations from a re-analysis of the deposited data

Results flagged for a closer look

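MYB44 moved in opposite directions in different lines: every 35S::CYC array was above both control arrays (log2 change 1.17), and every 35S::IaTCP1 and 35S::TCP1 array was below them (-0.28 and -0.37). IaTCP1 and TCP1 differed from CYC by -1.45 and -1.54. Both differences pass the call rule and are in the counts of called members, but the listing of MYB44 for CYC alone favours them, so they are a description and were not tested independently.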

How the results depend on the processing

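The counts of called members (4, 3 and 7 for IaTCP1, TCP1 and CYC against the control; 1, 5 and 3 for IaTCP1 against TCP1, IaTCP1 against CYC and TCP1 against CYC) depended mainly on the fold minimum. Without one, 8 member probe sets were called for IaTCP1 and 8 for TCP1 against the control, and 3, 10 and 7 between the transgenes. Both counts against the control hold both probe sets of MYB21. With 1.5-fold, 6 were called for IaTCP1 against the control (MYB25 and MYB117 were added), 7 between IaTCP1 and CYC, 2 between IaTCP1 and TCP1 and 6 between TCP1 and CYC. Cyclic loess gave 2 between IaTCP1 and TCP1. Leaving out 1 array at a time gave 4 to 4, 3 to 3 and 6 to 7 against the control, and 0 to 2, 5 to 5 and 3 to 4 between the transgenes. The lone remaining array was then assumed to vary like the other groups. MYB50 has a mean below 5 and dropped out under the filter on dim probe sets, which left 6 calls for CYC. The shares of all probe sets called under these alternatives are not given here, and the listing favours the members' calls. Nothing is therefore read from how many members were called under them.

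The labels do not say that equal replicate numbers of different groups mark a shared source, and each group has only 2. Deviations from the group means correlated at r of 0.16 to 0.52 over 6 pairs of groups. A replicate block left the counts at 4, 3 and 7 against the control and at 1, 5 and 3 between the transgenes; of the 14 tested differences it moved only MYB34 between TCP1 and CYC across an adjusted p of 0.05 (from 0.0519 to 0.0311). Of 1014 recomputed single changes, 34 were marked as moved by more than the spread of replicates, each on leaving out an array. The 14 tested differences could not get this mark, as they were judged only by whether their call changed. Some of them moved as far, such as MYB34 between IaTCP1 and TCP1 (0.08 to 0.35, residual SD 0.117), so 34 is a minimum. Of the tested differences, 4 became calls without a fold minimum, 2 of them already at 1.5-fold. No called change reversed. Uncalled changes near 0 could turn sign, reaching -0.05 for MYB13 and just under 0 for MYB20 in TCP1 against the control, and -0.17 and -0.01 in IaTCP1 against TCP1. The planned contrast of naming by the platform alone was not run, as it names no member, and the promoter motif search was not run, as no promoter sequences were used here. With 2 arrays per group, single outlying arrays could not be tested.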

Other observations

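Of 42 genes in a list of MYB and MYB-related genes under other names, 4 were matched to further probe sets. The list also held LOF1, LOF2 and BOS1, which are other names of MYB117, MYB105 and MYB108, given above. The R3-MYB gene TRY, a repressor of trichome fate, had 8.37 and 8.56 in the control and 7.57 and 7.77 in 35S::CYC. This was a difference of -0.80 (limma, adjusted p = 1.18e-04). KUA1 differed by 0.30 in that line (limma, adjusted p = 0.0231). Neither TRY nor KUA1 reached 2-fold for any transgene. RVE1, a clock-associated MYB-related gene, was higher than the control by 1.07, 0.99 and 1.68 for IaTCP1, TCP1 and CYC. RL6, a RADIALIS-like gene, differed by -0.68, -0.35 and -1.08 in the same order. The RL6 values in 35S::CYC (3.80 and 3.94) were under the lower quartile of their arrays (4.54 and 4.56), and no detection call was used. RVE1 and RL6 were named through the study's lists, so these values carry no test.

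Of 5 flavonoid genes named by the platform annotation, from a list of 14, none was called for any transgene at 2-fold. The highest value was that of DFR, an anthocyanin synthesis gene, at 0.79 for CYC (limma, adjusted p = 0.00354). Its arrays there (5.68 and 6.01) lay above those of the control (4.96 and 5.15).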
